A study of Rattus norvegicus with 36 samples.

Results

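The striatal transcriptome of BACHD transgenic (TG) rats was compared with that of wildtype (WT) rats after maternal separation (MS), an early-life stress that the sample labels abbreviate as ELS. The comparison used 12 of the 36 libraries of the series, chosen by the environment in the label, with 6 TG_MS and 6 WT_MS libraries. All 12 came from the striatum of male Sprague Dawley rats at an age of 2 months, and each library was 1 animal. The other 24 libraries came from TG and WT rats of the same strain, sex and age kept in a standard environment (SE) or an enriched environment (EE), with 6 libraries in each of those groups. In the MS groups, pups were taken away from their mothers for part of each day during the first weeks of life, and they were then housed like the SE groups. Wildtype animals after MS were therefore the controls, and both groups compared had gone through the separation. Whole litters were allocated to an environment and the labels do not give the litter of an animal, so libraries of a group may share one.

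BACHD rats carry the whole human mutant huntingtin gene (*HTT*) on a bacterial artificial chromosome, with an expanded run of glutamine codons, in addition to their own *Htt*. Huntingtin is a large, broadly expressed protein that acts as a scaffold in vesicle transport, and its polyglutamine expansion causes Huntington disease. The striatum is the brain region in which that disease is most prominent, and most of its neurons are GABAergic medium spiny projection neurons. Separation of rodent pups from the dam is a standard model of early-life stress, known for lasting effects on the stress axis. The question put to the data was which striatal genes differ with the transgene in animals with this early experience, and whether they differ by another amount than in SE or EE.

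Polyadenylated RNA was sequenced, and the values are raw counts per Ensembl gene. Total counts were between 11349848 and 13533392 in the 12 MS libraries, within the range of the whole series of 9895073 to 19284439. Between 19168 and 19835 genes had at least 1 count in each of the 12, and the 10 most abundant genes held between 16.7% and 22.8% of the counts. Every MS library had a median correlation with the other 11 between 0.984 and 0.988, on log2 normalised counts. The genes are listed by Ensembl identifier and the files do not pair these with symbols, so 4 genes are named by identifier and the other genes are described by their values. For the same reason *HTT*, *Htt* and the markers of striatal neurons and glia were not identified among the genes, and the tissue label was not checked against markers. Genes described below by identifier or by value may be among them.

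After MS, 17 genes differed between TG and WT animals, 7 of them higher and 10 lower in TG_MS. These were 0.134% of the 12657 genes tested. The higher genes ran from 1.23-fold to 11.4-fold, and the lower genes from 1.25-fold to 4.36-fold below WT_MS. Their mean level in WT_MS was between 64.0 and 1591 normalised read counts, with a median of 262. Differential expression was called where the adjusted p did not exceed 0.1 and the log2 fold change was at least 0.3 in size. The test was edgeR's quasi-likelihood test over all 36 libraries, with 1 mean per group and surrogate variables, which are covariates estimated from the counts themselves, as further terms. Adjusted p-values are by Benjamini-Hochberg over all genes tested, and fold changes are fitted values after the surrogate variables.

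The gene with the largest difference was ENSRNOG00000010867. Its normalised read counts in WT_MS had a lowest value of 55.0, a median of 66.1 and a highest value of 84.7. In TG_MS the lowest was 711, the median 797 and the highest 933. No value of either group came near the other group. The means were 69.2 ± 11.9 in WT_MS and 808 ± 83.8 in TG_MS (SD, n = 6 each). The fitted log2 fold change was 3.51 with a standard error of 0.14, or 11.4-fold, with an adjusted p of 4.1e-19 in edgeR. Without symbols it was not tested whether this gene is *Msantd1*. The study set *Msantd1* aside because its difference likely comes from its sequence in the construct.

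ENSRNOG00000011073 was the most abundant of the called genes. It had 1485 to 1713 normalised read counts in WT_MS with a median of 1598, and 2316 to 2716 in TG_MS with a median of 2468. The groups were again fully apart, and the spread within each was small, with an SD of 91.9 around a mean of 1591 in WT_MS and of 143 around 2467 in TG_MS. The fitted log2 fold change was 0.57 with a standard error of 0.046, or 1.48-fold, with an edgeR adjusted p of 3.7e-10. This was the smallest standard error among the 17 called genes, whose standard errors reached 0.25. The study names *HTT* and *Alk* as higher in TG in every environment. Without symbols it was not tested whether this or another called gene is huntingtin or *Alk*.

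Among the genes lower in TG_MS, ENSRNOG00000004179 had the largest difference. It had 120 to 172 normalised read counts in WT_MS with a median of 137, against 20.7 to 82.1 in TG_MS with a median of 43.2. All TG_MS libraries were below all WT_MS libraries, with a mean of 140 ± 17.9 in WT_MS and 46.1 ± 22.8 in TG_MS (SD, n = 6 each). The fitted log2 fold change was -2.12 with a standard error of 0.24, or 4.36-fold lower, with an edgeR adjusted p of 1.1e-06. Without surrogate variables its log2 fold change was -1.59.

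ENSRNOG00000016306 was the next gene by p among those lower. It had 595 to 819 normalised read counts in WT_MS with a median of 670, and 399 to 588 in TG_MS with a median of 503. The highest TG_MS value stayed just below the lowest WT_MS value. The fitted log2 fold change was -0.55 with a standard error of 0.078, or 1.46-fold lower, with an edgeR adjusted p of 1.2e-04. These 4 genes were those with the smallest p in each direction.

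**Figure D1:**
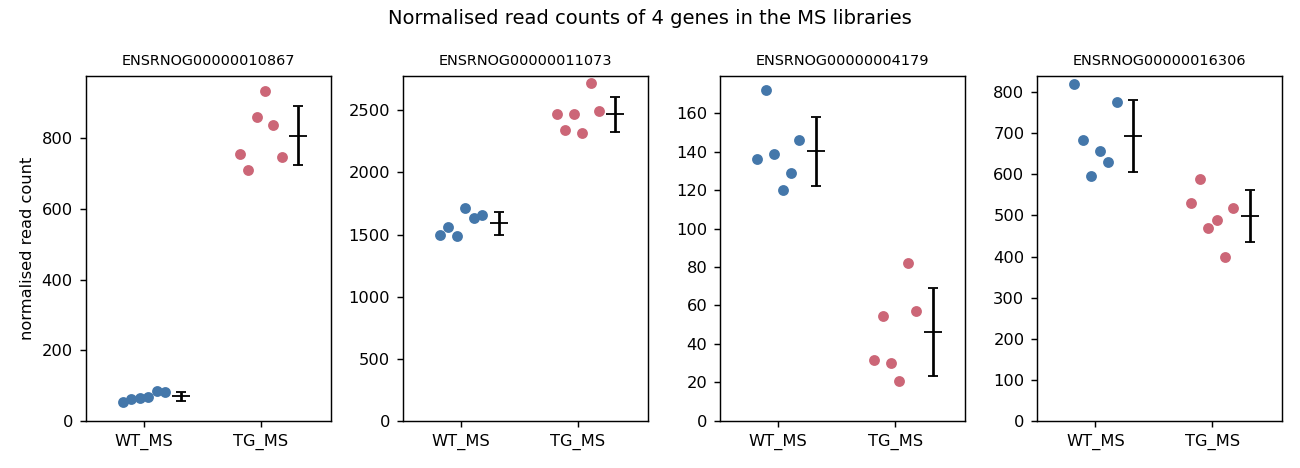
Normalised read counts of ENSRNOG00000010867, ENSRNOG00000011073, ENSRNOG00000004179 and ENSRNOG00000016306 (linear vertical axes that start at 0) in the 6 WT_MS libraries (blue) and the 6 TG_MS libraries (red), with bars for the mean ± SD. In all 4 genes the 2 groups do not overlap, with the narrowest gap in ENSRNOG00000016306, between 588 in TG_MS and 595 in WT_MS.

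Of the 17 called genes, 8 had groups that did not overlap, 3 of them higher and 5 lower in TG_MS. Over all genes tested, 48 genes, or 0.379%, had such groups. The remaining 4 higher and 5 lower genes overlapped in at least 1 library. The call itself depends on the distance between the groups, so this count describes the called genes and is no support for them.

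The other 5 higher genes had log2 fold changes between 0.30 and 0.83. The third by p had 223 to 261 normalised read counts in WT_MS and 337 to 410 in TG_MS, without overlap. The fourth and the sixth by p varied more, with 262 to 388 against 353 to 518 for the former and 76.7 to 137 against 126 to 189 for the latter. In both genes WT_MS replicate 5 was the highest WT_MS library and lay above the lowest TG_MS library. The fifth, at 1026 to 1416 against 1303 to 1762, and the seventh, at 651 to 787 against 773 to 971, had the smallest folds of the higher genes, 1.23 and 1.25.

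The other 8 lower genes had log2 fold changes between -0.32 and -1.54. The third by p was tight in both groups, with 239 to 277 normalised read counts in WT_MS and 154 to 191 in TG_MS. The fourth had a fold of 2.91, next to ENSRNOG00000004179 among the lower genes, and a wide range in WT_MS, from 66.4 to 199, against 20.7 to 65.2 in TG_MS. The ninth had 206 to 289 in WT_MS and 112 to 168 in TG_MS, again without overlap. The eighth had 110 to 204 against 79.8 to 183 and an edgeR adjusted p of 0.077. The largest adjusted p of a called gene was 0.088, and the smallest above the threshold was 0.102.

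**Figure D2:**
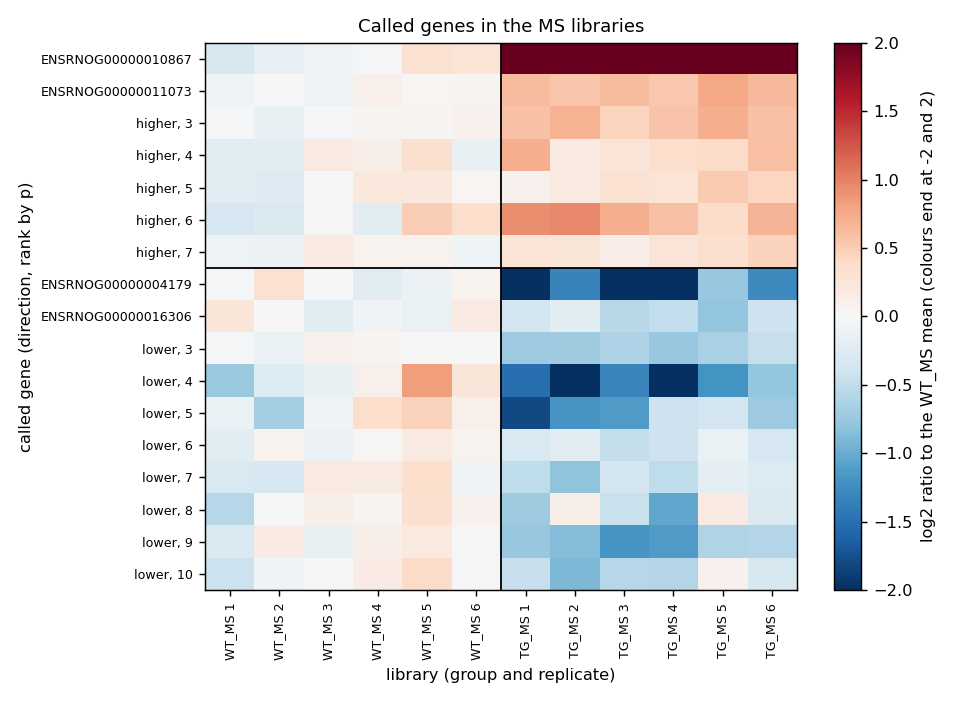
Log2 ratio of normalised read counts (with 0.5 added) to the WT_MS mean for the 17 called genes (rows, ordered by direction and p) in the 12 MS libraries (columns, by group and replicate); colours end at -2 and 2. The 7 higher genes are red in all 6 TG_MS libraries, and all 10 lower genes are blue in 4 of the 6. The genes were called on these same libraries.

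Taken per library, all 7 higher genes were above their WT_MS mean in 6 of 6 TG_MS libraries and in 1 of 6 WT_MS libraries. All 10 lower genes were below their WT_MS mean in 4 of 6 TG_MS libraries and in 0 of 6 WT_MS libraries. The exceptions were TG_MS replicates 2 and 5, in which the eighth lower gene was above its WT_MS mean, as was the tenth in replicate 5. Averaged over the 10 lower genes, TG_MS libraries lay between 1.05 and 0.44 below the WT_MS mean on the log2 scale. TG_MS replicates 5 and 6 were the least changed, at -0.44 and -0.54, and replicate 4 the most. Averaged over the higher genes without ENSRNOG00000010867, TG_MS libraries lay between 0.42 and 0.57 above the WT_MS mean and the WT_MS libraries between -0.17 and 0.20. The genes were called on these same libraries, so this separation is largely built in and is no support for them.

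The libraries carry running numbers, and each run of 6 consecutive numbers holds 1 library of every group. Within the 6 runs, the TG_MS library differed from the WT_MS library in the direction of the call in all 6 runs for 14 of the 17 genes, and in 5 of 6 runs for the other 3. Over all genes tested, 658 genes, or 5.2%, had the same direction in all 6 runs. The call used these same libraries, so agreement across runs is largely built in and is no support for the called genes. ENSRNOG00000010867 was higher in TG_MS by 3.17 to 3.79 on the log2 scale in every run, and ENSRNOG00000011073 by 0.44 to 0.73. ENSRNOG00000004179 was lower in every run, from -2.50 in run 4 to -0.65 in run 5. ENSRNOG00000016306 was lower by values from -0.66 to -0.22.

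Across all genes tested the difference between TG_MS and WT_MS was small. The median log2 fold change was 0.0040, and 95% of genes had an absolute value of at most 0.234. An absolute value of at least 0.3 was reached by 326 genes, of which the 17 passed the test. A further 9 genes, 6 higher and 3 lower, passed an adjusted p of 0.1 with absolute log2 fold changes between 0.189 and 0.284. The median 95% confidence interval of a gene extended 0.163 on the log2 scale to either side. By quartile of mean expression, from lowest to highest, 4, 5, 5 and 3 genes were called, and the median standard error was 0.134 in the lowest and 0.052 in the highest quartile.

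An unadjusted p under 0.05 was found for 932 genes, or 7.36% of those tested, with 526 higher and 406 lower in TG_MS. The share was 6.1% in the lowest and 9.67% in the highest quartile of mean expression. The spread between animals was alike in both groups, with a median SD of log2 normalised counts of 0.142 in WT_MS and 0.137 in TG_MS. In this bulk tissue, fewer cells of a type and less RNA per cell cannot be told apart for any of these genes.

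**Figure D3:**
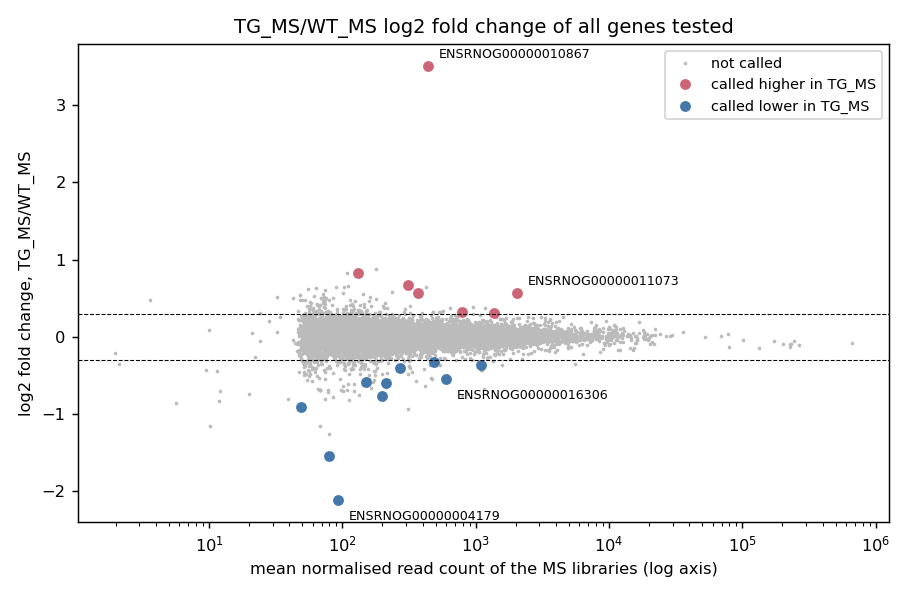
Fitted log2 fold change TG_MS/WT_MS (vertical axis) against the mean normalised read count of the 12 MS libraries (horizontal log axis) for the 12657 genes tested, with the 7 genes called higher in red and the 10 called lower in blue; dashed lines are the minimum of 0.3 in either direction. ENSRNOG00000010867 lies apart from all others at 3.51, and most grey points lie between the dashed lines.

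The number of calls moved with the covariates and with single libraries. It was 9 without surrogate variables, 7 of them among the 17, and 33 in DESeq2 with the same 5 surrogate variables, in which all 17 genes were called again. It was 9 without TG_MS replicate 1, 10 without WT_MS replicate 2, 11 without WT_MS replicate 6 and between 13 and 21 without any other of the 12 libraries. The surrogate variables themselves were not balanced between the groups, with a difference of group means of up to 1.32 SD, and their part in the calls that depend on them was not tested beyond these counts.

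The same contrast in the other environments shares no animal with the one after MS, although all 3 came from the same fit. It called 27 genes in TG_SE/WT_SE, or 0.213% of those tested, and 52 in TG_EE/WT_EE, or 0.411%. Of the 17 genes called after MS, 12 were called in SE, which is 70.6% of the MS list and 44.4% of the SE list. In EE 10 were called, which is 58.8% of the MS list and 19.2% of the EE list. The calls of all 3 environments shared 9 genes, the 4 named genes included, with 3 at a higher and 6 at a lower level in TG. A further 3 were called in MS and SE, 1 in MS and EE, and 4, 2 higher and 2 lower, after MS alone.

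The direction after MS was also that in SE and in EE for all 17 genes. Counted as positive along the direction called after MS, the median fitted difference was 0.58 after MS, 0.52 in SE and 0.39 in EE on the log2 scale. Since the genes were chosen for their values after MS, a smaller value elsewhere is built into the choice. The fold change after MS was the larger in 11 of the 17 when set against SE and in 14 of the 17 when set against EE, but in 11 and 10 without surrogate variables, where the medians were 0.60, 0.50 and 0.46.

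ENSRNOG00000010867 had a log2 fold change of 3.52 in SE and of 3.66 in EE. The difference of the effect after MS from that in SE was -0.0063 (95% confidence interval -0.42 to 0.41), and from that in EE -0.15 (-0.58 to 0.28). ENSRNOG00000011073 had 0.59 in SE and 0.55 in EE, with differences of -0.020 (-0.15 to 0.11) and 0.018 (-0.12 to 0.15). The intervals of the second gene were the narrower ones.

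ENSRNOG00000004179 had a log2 fold change of -1.91 in SE and -1.69 in EE. The differences after MS were -0.22 (-0.88 to 0.45) and -0.43 (-1.17 to 0.31), the widest intervals of the 4 named genes. Without surrogate variables the order turned, with -1.59 after MS, -1.67 in SE and -1.92 in EE. ENSRNOG00000016306 had -0.46 in SE and -0.38 in EE, with differences of -0.088 (-0.31 to 0.13) and -0.17 (-0.40 to 0.058). Over all 36 libraries, 4 of the 17 genes had all 18 TG libraries on one side of all 18 WT libraries, as did 5 of all genes tested. ENSRNOG00000010867 and ENSRNOG00000011073 were among the 4, whereas for ENSRNOG00000004179 the highest TG library, at 82.1 in TG_MS, was above the lowest WT library, at 80.9 in WT_EE.

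**Figure D4:**
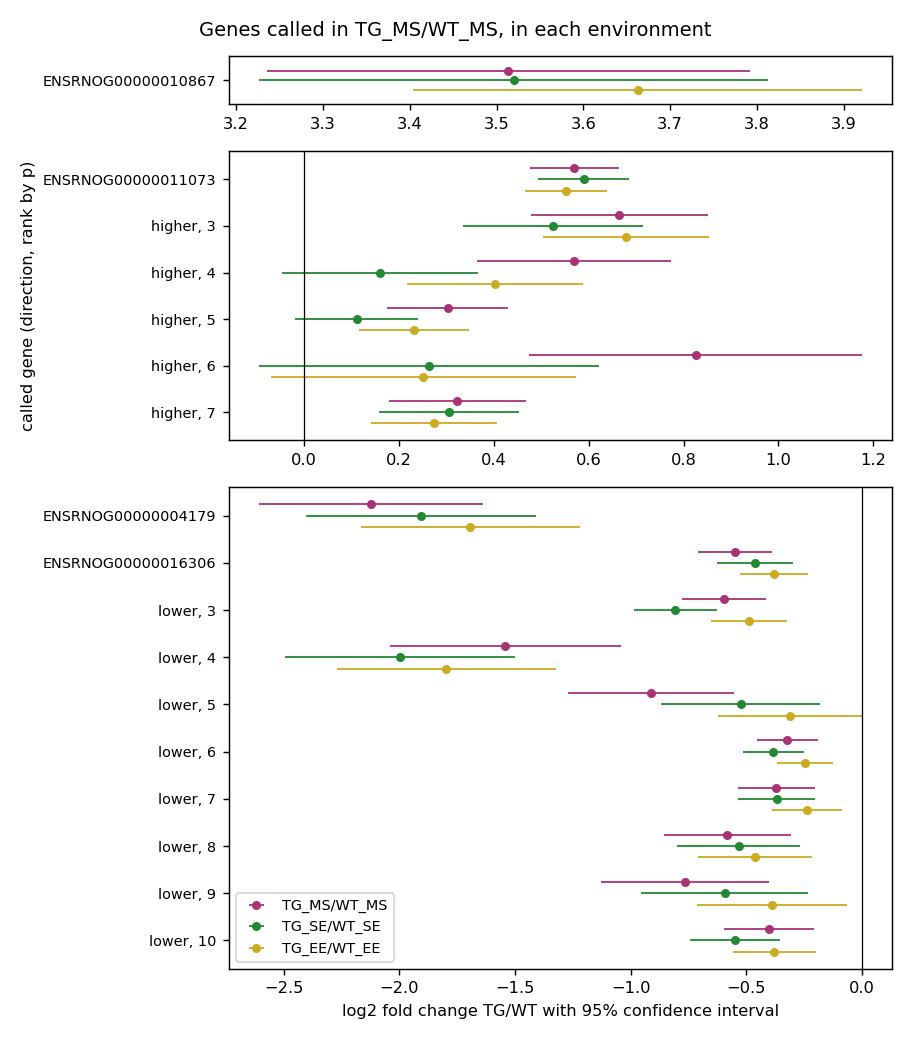
Fitted log2 fold change TG/WT with its 95% confidence interval (horizontal axes, separate scales) after MS, in SE and in EE for the 17 genes called after MS, ordered by direction and p; the vertical line is 0. All points lie on the same side of 0 in the 3 environments, and the intervals of the higher genes ranked 4, 5 and 6 include 0 in SE, as do those of the higher gene ranked 6 and the lower gene ranked 5 in EE.

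The 4 genes called after MS alone were the fifth and the sixth higher gene and the fifth and the ninth lower gene. The sixth higher gene had a mean of 99.7 ± 25.2 normalised read counts in WT_MS and 161 ± 24.1 in TG_MS (SD, n = 6 each). Its means were 114 ± 22.1 and 161 ± 32.4 in WT_SE and TG_SE, and 123 ± 32.2 and 149 ± 25.5 in WT_EE and TG_EE. The TG groups were thus close to each other, and WT_MS had the lowest mean of the WT groups. The fitted log2 fold change was 0.83 after MS, 0.26 in SE and 0.25 in EE, with differences of 0.56 from SE (95% confidence interval 0.074 to 1.05) and 0.57 from EE (0.077 to 1.07) and edgeR adjusted p-values of 0.999 for both. These values hold only with the surrogate variables. Without them, as in the means above, the log2 fold changes were 0.69, 0.50 and 0.29, the difference from SE was 0.19 (-0.29 to 0.68) and that from EE 0.40 (-0.087 to 0.89).

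The fifth lower gene was at the low end of the levels tested, with 64.0 ± 17.2 in WT_MS and 33.9 ± 11.9 in TG_MS. In SE it had 72.7 ± 15.1 and 50.6 ± 11.7, and in EE 68.3 ± 18.9 and 50.4 ± 8.67, for WT and TG. Here the WT groups were close to each other and TG_MS had the lowest mean of the TG groups. The log2 fold change was -0.91 after MS, -0.52 in SE and -0.31 in EE, and the differences after MS were -0.39 (-0.86 to 0.090) and -0.60 (-1.11 to -0.096). Neither passed the test, with edgeR adjusted p-values of 0.999. Without surrogate variables the differences were -0.39 (-0.99 to 0.22) from SE and -0.47 (-1.07 to 0.135) from EE, so both intervals held values of either sign.

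The fifth higher gene had log2 fold changes of 0.30 after MS, 0.11 in SE and 0.23 in EE. In EE it passed the adjusted p, at 0.054 in edgeR, and missed the call only by the minimum fold. Without surrogate variables the values were 0.30, 0.22 and 0.15. The ninth lower gene had fitted values of -0.76 after MS, -0.59 in SE and -0.39 in EE. The order of MS and SE turned without surrogate variables, at -0.85, -1.37 and -0.24. It was then called in SE, with an edgeR adjusted p of 0.023, and not after MS, at 0.658. Its means were 434 ± 271 and 168 ± 18.4 in WT_SE and TG_SE, where all WT libraries were above all TG libraries, and 255 ± 33.5 and 142 ± 24.5 in WT_MS and TG_MS. TG_EE was also uneven, at 218 ± 131. Replicate 6 was the highest library in both of these uneven groups, at 937 in WT_SE and 471 in TG_EE. With surrogate variables, the lower genes had an unadjusted edgeR p in SE of 0.0039 (the fifth) and 0.0020 (the ninth), in the same direction. No difference from SE or EE passed the test for any of the 4 genes.

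Each of these 4 calls was lost in some fits. Without surrogate variables none of them was made, with edgeR adjusted p-values after MS between 0.107 and 0.658. Of the 12 fits that left out 1 MS library, the ninth lower gene was called in 3, those without WT_MS replicate 3, WT_MS replicate 4 or TG_MS replicate 6. The fifth higher gene was called in 7 of the 12 and lost without WT_MS replicates 1, 5 or 6 or TG_MS replicates 3 or 6. The sixth higher gene was called in 9 and lost without WT_MS replicates 1 or 2 or TG_MS replicate 1, and the fifth lower gene was called in 11 and lost without TG_MS replicate 1.

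The difference between the TG/WT effects was tested for every gene as an interaction of genotype with environment. For MS against SE edgeR called 0 genes. The smallest adjusted p was 0.999, and 532 genes, or 4.2%, had an unadjusted p under 0.05. DESeq2 called 0 genes with the surrogate variables and 1 without. For MS against EE edgeR called 0 genes, and so did DESeq2 with or without the surrogate variables. The smallest adjusted p in edgeR was 0.911, and 487 genes, or 3.85%, had an unadjusted p under 0.05. The median 95% confidence interval extended 0.225 to either side for MS against SE and 0.234 for MS against EE. Among the 17 genes, 3 had an unadjusted p under 0.05 against SE, all of them higher genes with the larger fold after MS. Against EE there were 2, the sixth higher and the fifth lower gene. The 17 genes were chosen for their values after MS, so small p-values with the larger fold after MS are partly built in. Without surrogate variables, the intervals against SE of the fifth (-0.19 to 0.34) and the sixth higher gene (-0.29 to 0.68) held values of either sign. That of the fourth higher gene stayed above 0 (0.00056 to 0.55), with an edgeR adjusted p of 0.992. In that fit this gene was not called after MS, at a log2 fold change of 0.41 and an edgeR adjusted p of 0.107. It was called in EE, at 0.46 and 0.034.

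The genes called in SE or EE and not after MS mostly kept their direction. Of 15 genes called in SE and not after MS, 14 had the same direction after MS and 11 also an unadjusted p under 0.05. Along the direction called in SE, the median of their log2 fold changes in that environment was 0.44, against 0.24 after MS, and 4 of the 15 reached 0.3 after MS. Of 42 genes called in EE and not after MS, 31 had the same direction and 18 also an unadjusted p under 0.05 after MS, with medians of 0.40 in EE and 0.20 after MS. The test of the difference had an unadjusted p under 0.05 for 5 of the 15 and 16 of the 42, and edgeR called 0 of them after adjustment. These genes were chosen for a large value in SE or EE and for no call after MS. A smaller median after MS and more small p-values in the test of the difference are therefore built in here too.

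Genes below the threshold after MS shared their direction with the other environments in part. Of the 915 genes with an unadjusted p under 0.05 after MS that were not called, 640 (69.9%) differed the same way in SE and 664 (72.6%) did so in EE. Over all genes tested the share was 56.2% for SE and 56.6% for EE. An unadjusted p under 0.05 with the same direction was found for 140 of the 915 in SE and for 218 in EE. The genes are not independent of each other and the 3 contrasts share a fit, so these shares are descriptions.

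**Figure D5:**
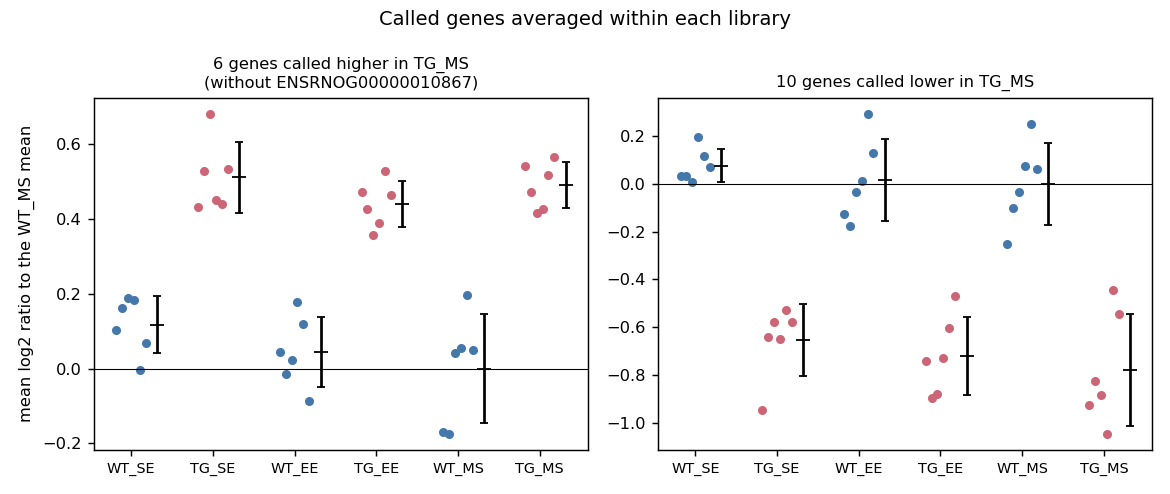
Mean log2 ratio to the WT_MS mean (vertical axes) over the 6 genes called higher in TG_MS without ENSRNOG00000010867 (left) and over the 10 genes called lower (right), for each of the 36 libraries by group; blue is WT, red is TG, and bars are the mean ± SD of 6 libraries. The genes were chosen by the TG_MS/WT_MS contrast of the fit over all 36 libraries. The SE and EE libraries therefore took part in that fit. They show the same separation, with every TG library apart from every WT library in both panels.

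Averaged over the 6 higher genes without ENSRNOG00000010867, the mean log2 ratio to WT_MS was 0.49 ± 0.062 in TG_MS, 0.51 ± 0.094 in TG_SE and 0.44 ± 0.062 in TG_EE (SD, n = 6 each). The WT groups were at 0.12 ± 0.076 in SE and 0.044 ± 0.094 in EE. Over the 10 lower genes the means were -0.78 ± 0.23 in TG_MS, -0.65 ± 0.15 in TG_SE and -0.72 ± 0.16 in TG_EE, against 0.076 ± 0.070 in WT_SE and 0.017 ± 0.17 in WT_EE. In both averages, the means of TG_SE and TG_EE lay within 1 SD of the TG_MS libraries from the TG_MS mean. These averages are not corrected for surrogate variables.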

How the data were processed

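The authors checked reads with FastQC 0.11.4, aligned them with STAR 2.5.2b against the rat genome of Ensembl plus the human *HTT* transgene, and deposited them as raw counts for each gene, not normalized. The counting program is not given in the sources used here. Groups came from the genotype and environment in the labels.

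R 4.3.3 was used with sva 3.50.0, edgeR 4.0.16, limma 3.58.1 and DESeq2 1.42.0. Of 23965 genes, 12657 with a mean of at least 50 counts were tested; the 11308 others held 0.689% of all counts. The model held 1 mean for each of 6 groups and 5 surrogate variables from svaseq on TMM-normalised counts, a number set by permutation (num.sv, seed 1), whereas the asymptotic procedure gave 0. Normalised read counts are TMM-scaled; ratios per library use an added 0.5. The procedure was tested on simulated counts, and that test is not used here as support for any call. Same-run WT_MS and TG_MS libraries had correlations of -0.047 in run 4 and of 0.034 to 0.333 in the other runs. Runs were not treated as pairs in the main fit. The correlations do not decide whether libraries of a run share an effect, since all but that of run 4 were positive. Fits with runs as a block are given below. No 2 libraries of an MS group agreed within sampling noise (chi-square per gene at least 5.04).

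Comparisons, lists and tests were chosen with earlier results of these data known. The rule set for named genes covered called genes, genes the study names and marker lists by symbol. Without symbols it was replaced, after values were seen, by the 2 genes with the smallest p in each direction, and the gene lists were not analysed. *Msantd1*, which the study set aside because the construct carries its sequence, was not excluded. Alternatives were other numbers of surrogate variables, runs as a block, DESeq2, other size factors, filters and thresholds, and each library left out in turn.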

Additional observations from a re-analysis of the deposited data

How the results depend on the processing

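The 4 named genes kept their direction and an adjusted p of at most 0.1 in every fit that tested them; a filter of at least 50 counts in every library removed ENSRNOG00000010867 and ENSRNOG00000004179. Of the 17 genes called in TG_MS/WT_MS, 7 were called in each of 12 fits that left out 1 MS library, and 4 in each of those and of 17 alternatives. The rest of the 7 were ENSRNOG00000010867, ENSRNOG00000004179 and the fourth lower gene, each called in 16 of the 17 alternatives. The filter of at least 50 counts in every library removed all of these, so they were not tested there. The count of 17 moved to 9 (7 of the 17) with 0 surrogate variables, 31 with 2, 51 with 3 and 33 with 4. It moved to 27 when the surrogate variables were estimated from counts on another scale (CPM). The last 3 of these settings were chosen after seeing the data. It was 33 in DESeq2 with and 30 without surrogate variables, 47 with at least 50 counts in every library, and 26 without a minimum fold. With runs as a block in place of surrogate variables, it was 21, with 11 of the 17 genes among them, and 37, with 12 of the 17, with this block in the 12 MS libraries alone, where 2 of 6 libraries in each group correlated best with their own run; without the block those 12 libraries gave 12. Leaving out 1 library gave 9 (TG_MS replicate 1) to 21, with 10 without WT_MS replicate 2 and 11 without WT_MS replicate 6. The 9 genes common to the 3 environments became 14 with at least 50 counts in every library and were 7 to 10 when 1 library was left out. The interaction of MS against SE had 1 call in DESeq2 without surrogate variables and 0 in every other fit, and that of MS against EE had 0 in all. Where all genes with a count were tested, 4 of the 11308 genes under the minimum were called, all lower in TG_MS. The causes of these moves were not tested. Depth limits what can be said of genes near the minimum of 50 counts, whose standard errors were the largest.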
